A study of Mus musculus with 2 samples.

Results

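Inflammatory CC chemokines are small secreted proteins that draw leukocytes into tissue. The 9 genes described here, Ccl2, Ccl3, Ccl4, Ccl5, Ccl6, Ccl7, Ccl8, Ccl9 and Ccl12, were chosen by name, and all 9 are among the 55357 genes listed for both libraries. Their transcripts were counted in single cells from mouse colon tumours, in 2 libraries with 1 for each genotype. The library labelled KO is described as coming from ECM1Flox/Flox, Villin-Cre animals, in which the Villin promoter drives Cre recombinase in intestinal epithelium, and the library labelled WT from ECM1Flox/Flox animals, so that both carry the floxed alleles. KO and WT in brackets stand for these labels. How many animals were used, their age and sex, any pooling and the tumour model are not stated in the labels. Although these genes are known as products of inflammatory myeloid cells, Ccl5 lay chiefly in a lymphocyte cluster in both libraries. Most Ccl6 transcripts of the library labelled KO lay in epithelial-like cells, although the level in that class was below that of the whole library. The study asked how ECM1, a secreted matrix protein, bears on the entry of neutrophils into the tumour. With 1 library per genotype no difference could be tested. Each interval below is a 95% interval for counting error only, which says nothing of the spread between animals or between cells.

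CC chemokines act through G protein-coupled receptors on leukocytes. Ccl2, Ccl7, Ccl12 and Ccl8 belong to the monocyte chemoattractant group, whose main receptor on monocytes is CCR2, although mouse CCL8 acts through another receptor. Ccl3 and Ccl4 encode macrophage inflammatory proteins that attract monocytes and lymphocytes, and CCL3 binds CCR1. CCL5 also binds CCR1 and is a typical product of activated cytotoxic lymphocytes. Ccl6 and Ccl9 are rodent genes whose products act through CCR1.

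All 9 genes lie on chromosome 11 in the RefSeq annotation of build GRCm38.p6, in 2 groups. Ccl2, Ccl7, Ccl12 and Ccl8 span positions 82035577 to 82116799, and Ccl5, Ccl9, Ccl6, Ccl3 and Ccl4 span 83525778 to 83664683. The authors' build was GRCm39, so these positions serve only to describe the reference sequences. RefSeq promoter windows, 250 bases before to 50 bases after the start of the gene, were at hand for 5 of the 9. They are shown because Ccl12 and Ccl8 had the same main class of cells, and because Ccl6 and Ccl9 shared the monocyte-like and Paneth-like cells. The windows are chr11:82101595-82101894 (plus strand) for Ccl12, chr11:82114935-82115234 (plus) for Ccl8, chr11:83593038-83593337 (minus) for Ccl6, chr11:83578587-83578886 (minus) for Ccl9 and chr11:83649329-83649628 (minus) for Ccl3, read 5′ to 3′ on the gene's strand. Capitals mark matches to TATAAA, to the AP-1 motif TGANTCA or to the NF-kappaB consensus on either strand.
Ccl12: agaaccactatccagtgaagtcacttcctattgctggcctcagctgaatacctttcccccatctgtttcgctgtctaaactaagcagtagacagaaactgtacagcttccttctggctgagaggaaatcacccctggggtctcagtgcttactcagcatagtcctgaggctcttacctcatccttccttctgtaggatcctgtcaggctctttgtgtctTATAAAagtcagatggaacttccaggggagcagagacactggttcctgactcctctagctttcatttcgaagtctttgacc
Ccl8: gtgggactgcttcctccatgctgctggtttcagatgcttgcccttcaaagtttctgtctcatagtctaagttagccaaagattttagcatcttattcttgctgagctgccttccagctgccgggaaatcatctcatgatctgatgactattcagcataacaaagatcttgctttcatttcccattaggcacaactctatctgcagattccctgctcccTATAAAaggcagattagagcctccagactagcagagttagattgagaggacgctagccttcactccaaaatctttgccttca
Ccl6: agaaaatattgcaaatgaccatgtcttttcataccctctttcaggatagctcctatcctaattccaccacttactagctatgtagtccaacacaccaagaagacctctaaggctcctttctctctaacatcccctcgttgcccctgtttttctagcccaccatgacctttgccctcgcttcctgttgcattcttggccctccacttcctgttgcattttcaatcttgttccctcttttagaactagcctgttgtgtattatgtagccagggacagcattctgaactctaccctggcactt
Ccl9: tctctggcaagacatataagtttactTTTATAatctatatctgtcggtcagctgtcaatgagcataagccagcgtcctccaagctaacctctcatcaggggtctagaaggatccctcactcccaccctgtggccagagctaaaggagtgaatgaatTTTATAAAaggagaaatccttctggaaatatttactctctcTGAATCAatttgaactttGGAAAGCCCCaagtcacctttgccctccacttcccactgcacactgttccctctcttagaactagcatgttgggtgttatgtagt
Ccl3: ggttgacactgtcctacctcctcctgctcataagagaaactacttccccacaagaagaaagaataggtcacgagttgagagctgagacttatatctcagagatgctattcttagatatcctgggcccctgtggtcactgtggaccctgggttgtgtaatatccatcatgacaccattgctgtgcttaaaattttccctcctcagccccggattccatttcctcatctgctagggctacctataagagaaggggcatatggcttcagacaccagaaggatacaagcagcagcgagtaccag

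Ccl12 and Ccl8 each held TATAAA on the gene's strand, beginning 31 and 32 bases before the start site, and aligned over 275 bases with 65.5% identity. Ccl6 and Ccl9 aligned over 228 bases with 64.0% identity and shared a run of 13 bases, although their matches differed. Ccl9 held 3 matches to TATAAA, of which 2 overlap on opposite strands, 1 site that reads as AP-1 on both strands and 1 NF-kappaB match 35 bases before the start. The Ccl6 and Ccl3 windows held none of these motifs. Among 32851 promoter windows of the same length, 13.6% held TATAAA, 7.81% AP-1 and 4.51% NF-kappaB. A match is a description of the letters, not of a bound site. No pair of members shared a run of more than 25 bases between annotated transcripts. The RefSeq model of Ccl4 runs antisense across part of Ccl3, while the GENCODE models of the pair do not overlap, and whether reads were counted by strand is not given in the sources used here.

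After filtering, the library labelled KO held 4233 cells (median 10429 UMIs, unique molecular identifiers, per cell) and the one labelled WT held 8262 cells (median 2741), and the libraries shared 17 barcodes. Epithelial-like cells made up 60.4% of the library labelled KO and 27.0% of the one labelled WT, neutrophil-like cells 4.75% (KO) and 27.1% (WT). Ecm1, the targeted gene, was not reduced in epithelium labelled KO (40.4 CPM, the gene's UMIs per 1000000 UMIs of the class, against 34.2 CPM in epithelium labelled WT). Which part of the gene is deleted is not stated, so that deletion that was incomplete or left reads in place and an exchange of the labels cannot be told apart. Every direction given here is that of the libraries as labelled, and would turn round if the labels were exchanged. Xist had 96659 (KO) and 5 UMIs (WT), so that genotype and sex cannot be told apart. Cells were grouped without the chemokine genes. Each named group has its defining markers, and 3 clusters stayed unnamed and are called by number. Cluster 18 is led by Arg1, Clec4n, Mmp12 and Ccl24, genes of monocytes and macrophages, cluster 23 by Nkg7, Klrd1 and Xcl1, and cluster 17 by Il17a, Cxcr6 and Rora. The fibroblast-like cluster also holds cells led by endothelial genes.

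**Figure D1:**
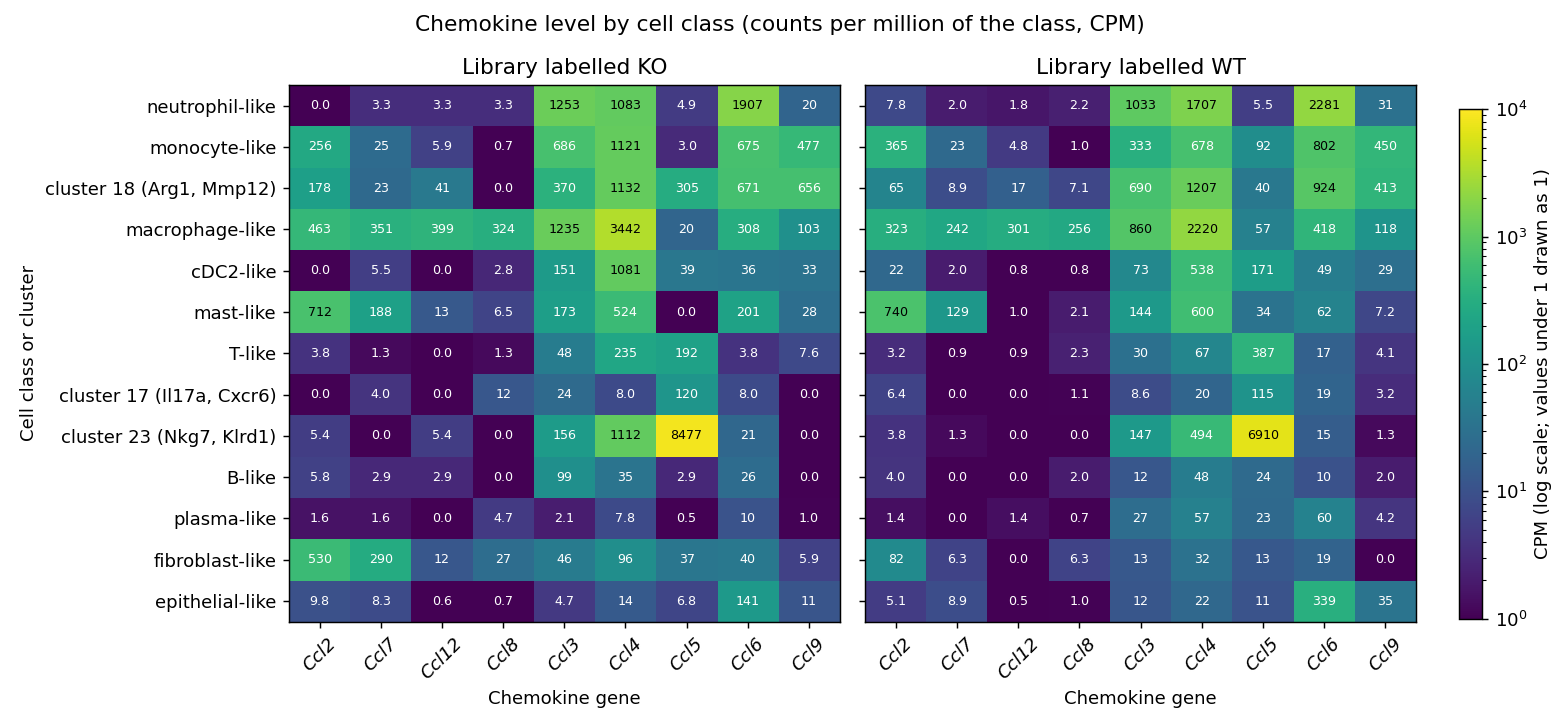
Level of each chemokine gene (columns) in each cell class or cluster (rows), in CPM of the class, for the library labelled KO (left) and the one labelled WT (right). Colour is on a log scale and should be compared down a column: Ccl12 and Ccl8 are high in macrophage-like cells (399 and 324 CPM in the library labelled KO), Ccl5 in cluster 23 (8477 CPM), and Ccl2 in mast-like cells (712 CPM).

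Ccl2 encodes the leading attractant of monocytes. Among the classes its highest level was not in a monocyte or macrophage class but in mast-like cells, at 712 CPM (interval 637 to 794) in the library labelled KO and 740 CPM (687 to 796) in the one labelled WT. Monocyte-like cells held 256 CPM (230 to 285) in the library labelled KO and 365 CPM (344 to 387) in the one labelled WT. Macrophage-like cells held 463 CPM (434 to 493, KO) and 323 CPM (299 to 348, WT). Fibroblast-like cells held 530 CPM (503 to 557, KO) and 82.3 CPM (43.8 to 141, WT). Neutrophil-like cells had no Ccl2 UMI in the library labelled KO, where the interval of a count of 0 reaches 6.065 CPM, and 7.76 CPM in the one labelled WT. In mast-like cells labelled KO, 62.0% of the Ccl2 UMIs lay in 5 cells, against 28.5% in those labelled WT, so the place of mast-like cells above the next class rests on few cells in the library labelled KO. The summed epithelial markers there were 5945 CPM (KO) and 597 CPM (WT), and their part in the mast-like levels was not tested.

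The stromal share of Ccl2 and Ccl7 set the libraries apart. Fibroblast-like cells held 39.4% of all Ccl2 UMIs of the library labelled KO and 0.423% of the one labelled WT, and 38.0% (KO) and 0.0964% (WT) of the Ccl7 UMIs. That class has 262 cells in the library labelled KO and 28 in the one labelled WT, too few for a comparison of levels. Split at a finer resolution, 131 cells of the library labelled KO led by Col3a1, Col1a1 and Dcn held 918 CPM of Ccl2 and 504 CPM of Ccl7, both above any whole class of that library. The 67 cells led by endothelial genes such as Cdh5 and Flt1 held 11.5 CPM of Ccl2 and 1.15 CPM of Ccl7. The 131 collagen-producing cells held 1468 of the 1516 Ccl2 UMIs of the fibroblast-like class labelled KO. Of the UMIs of that class labelled KO, 47.2% for Ccl2 and 41.4% for Ccl7 lay in 5 cells, so these levels too rest on few cells. The summed macrophage markers in the 131 cells were 2314 CPM, and their part in the levels was not tested.

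Ccl7, which attracts monocytes and eosinophils, was highest among the whole classes in macrophage-like cells, with 351 CPM (326 to 377) in the library labelled KO and 242 CPM (222 to 264) in the one labelled WT. Mast-like cells came next among the compared classes with 188 CPM (KO) and 129 CPM (WT), but 94.3% (KO) and 90.5% (WT) of those UMIs lay in 5 cells. Monocyte-like cells held only 25.2 CPM (KO) and 23.2 CPM (WT).

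Ccl12, known in the mouse as a ligand of CCR2, and Ccl8 lay mainly in macrophage-like cells. Ccl12 stood there at 399 CPM (372 to 427) in the library labelled KO and 301 CPM (279 to 325) in the one labelled WT, which were 87.7% (KO) and 86.3% (WT) of all its UMIs. Ccl8 stood at 324 CPM (301 to 350, KO) and 256 CPM (236 to 279, WT), or 83.0% (KO) and 87.2% (WT) of its UMIs. These levels rest in large part on few cells. Of the macrophage-like Ccl8 UMIs 58.2% (KO) and 51.8% (WT) lay in 5 cells, and of the Ccl12 UMIs 37.7% (KO) and 44.9% (WT). Monocyte-like cells held 5.94 CPM (KO) and 4.76 CPM (WT) of Ccl12, and 0.742 CPM (KO) and 0.952 CPM (WT) of Ccl8. Both genes thus had the same main class in both libraries. Among macrophage-like cells thinned to 1000 UMIs, a Ccl8 UMI was found in 16.3% (KO label) and 19.4% (WT label) of the cells with Ccl12, and in 14.2% (KO) and 12.8% (WT) of the cells without (Spearman rho 0.04 for KO and 0.06 for WT).

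Ccl3 and Ccl4 were found in all myeloid classes, but not in these alone. Ccl3 stood at 1253 CPM (1165 to 1345) in neutrophil-like cells labelled KO and 1033 CPM (1004 to 1063) in those labelled WT, and at 1235 CPM (1188 to 1284, KO) and 860 CPM (822 to 900, WT) in macrophage-like cells. The first 2 classes did not differ beyond counting error in the library labelled KO and did in the one labelled WT. Cluster 18 held 370 CPM (KO) and 690 CPM (WT), and monocyte-like cells 686 CPM (KO) and 333 CPM (WT), so these 2 groups stood in opposite order in the libraries. Ccl4 was highest in macrophage-like cells, at 3442 CPM (3363 to 3523, KO) and 2220 CPM (2158 to 2284, WT). Cluster 23, led by lymphocyte genes, held 1112 CPM (KO) and 494 CPM (WT) of Ccl4, but 78.3% (KO) and 39.2% (WT) of those UMIs lay in 5 cells. Neutrophil-like cells held 1083 CPM (KO) and 1707 CPM (WT) of it. The Ccl3 levels of cluster 23 were lower, at 156 CPM (KO) and 147 CPM (WT), with 100% (KO) and 50.9% (WT) of the UMIs in 5 cells.

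**Figure D2:**
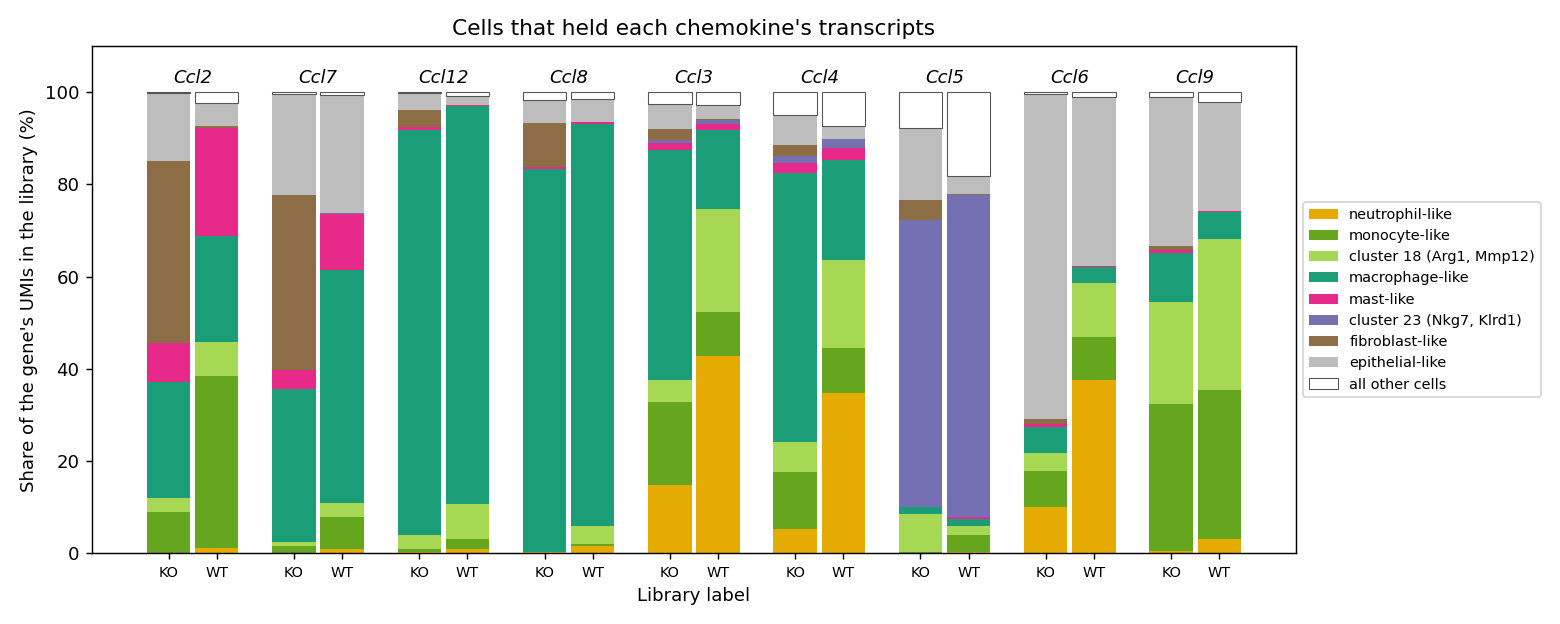
Share (%) of all UMIs of each chemokine gene held by each cell class, for the library labelled KO (left bar of each pair) and the one labelled WT (right bar). Macrophage-like cells held 58.5% of Ccl4 under the KO label and 21.8% under the WT label, while Ccl12, Ccl8 and Ccl5 had the same main source in both.

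The classes that held most Ccl3 and Ccl4 differed between the libraries, as did the mix of cells. Macrophage-like cells held 49.8% of the Ccl3 UMIs of the library labelled KO and 17.1% of the one labelled WT, and neutrophil-like cells 14.8% (KO) and 42.8% (WT). For Ccl4 the macrophage-like shares were 58.5% (KO) and 21.8% (WT), and the neutrophil-like shares 5.39% (KO) and 34.8% (WT). Over the whole library, Ccl3 stood at 73.6 CPM (KO) and 208 CPM (WT) and Ccl4 at 175 CPM (KO) and 422 CPM (WT). A lower level per library thus stood beside a higher level per macrophage-like class in the library labelled KO.

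Within the neutrophil-like class Ccl3 was concentrated in cluster 11, the smallest of its 3 clusters, whose leading genes include Hmox1, Cstb and Il36g. The members took no part in the clustering. That cluster has 16 cells in the library labelled KO, at 10290 CPM, and 227 in the one labelled WT, at 6867 CPM. Cluster 12 held 492 CPM (KO) and 345 CPM (WT), and cluster 10 held 1456 CPM (KO) and 1351 CPM (WT). Ccl6 was lowest of the 3 in cluster 11, with 432 CPM (KO) and 1063 CPM (WT), against 2058 CPM (KO) and 2199 CPM (WT) in cluster 10 and 1966 CPM (KO) and 2428 CPM (WT) in cluster 12.

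Ccl5 was not chiefly a myeloid transcript in these libraries. Cluster 23, whose leading genes Nkg7 and Klrd1 belong to cytotoxic lymphocytes, held 8477 CPM (8064 to 8906) in the library labelled KO and 6910 CPM (6728 to 7096) in the one labelled WT, or 62.2% (KO) and 69.9% (WT) of all Ccl5 UMIs. T-like cells held 192 CPM (KO) and 387 CPM (WT). Monocyte-like cells held 2.97 CPM (KO) and 92.3 CPM (WT), and neutrophil-like cells 4.93 CPM (KO) and 5.55 CPM (WT). Cluster 23 has 49 cells in the library labelled KO, under the minimum for a comparison. Of its Ccl5 UMIs 53.9% (KO) and 10.2% (WT) lay in 5 cells. With each cell weighted equally its Ccl5 level was 7353 CPM (KO) and 8536 CPM (WT), the opposite order.

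Ccl6 was highest in neutrophil-like cells among the classes, at 1907 CPM (1799 to 2020) in the library labelled KO and 2281 CPM (2237 to 2325) in the one labelled WT. A UMI was found in 60.5% of the thinned neutrophil-like cells labelled KO and 73.3% of those labelled WT (78.1% for KO and 81.9% for WT before thinning, which left out 6 cells for KO and 103 for WT). B-like cells, which should lack the gene, had one in 1.5% (KO) and 1.19% (WT). Before thinning, neutrophil-like cells had a median of 2843 (KO) and 1913 UMIs (WT), and the B-like class a median of 2340 (KO) and 1731 (WT). The transcript was therefore well above the background of free RNA in both libraries.

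Most Ccl6 of the library labelled KO nevertheless lay in the epithelium. Epithelial-like cells held 70.5% of its Ccl6 UMIs, against 36.7% in the one labelled WT. The class also held 58110736 UMIs of all genes in the library labelled KO, against 608221 in neutrophil-like cells. Its Ccl6 level, 141 CPM (KO) and 339 CPM (WT), was below that of the whole library, 166 CPM (KO) and 522 CPM (WT). The share is thus not an enrichment in the class as a whole. Within the epithelium, cluster 7, named from Paneth cell markers such as Lyz1, Ang4 and Mmp7, held 2018 CPM (1963 to 2074, KO) and 2682 CPM (2626 to 2738, WT), at least as high as the neutrophil-like class. Its leading genes also include the goblet markers Spink4, Tff3, Muc2 and Agr2, and the goblet list scored second. The name Paneth-like thus does not set this cluster apart from goblet cells. The goblet-like cluster 19 held 1413 CPM (KO) and 2212 CPM (WT), and cluster 20, led by Saa1 and Duox2, 39.0 CPM (KO) and 48.4 CPM (WT). In cluster 7, 57.0% of the thinned cells of the library labelled KO and 61% of the one labelled WT had a Ccl6 UMI.

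Ccl9 followed Ccl6 in part. It was highest in cluster 18 in the library labelled KO, with 656 CPM (597 to 720), and in monocyte-like cells in the one labelled WT, with 450 CPM (426 to 474). Monocyte-like cells labelled KO held 477 CPM (441 to 516) and cluster 18 of the library labelled WT 413 CPM (392 to 435). Under the KO label 60.2% of the Ccl9 UMIs of cluster 18 lay in 5 cells, against 21.15% in monocyte-like cells. With each cell weighted equally these levels were 449 CPM and 457 CPM, so the first place of cluster 18 rests on few cells. Neutrophil-like cells, rich in Ccl6, held only 19.7 CPM (KO) and 30.8 CPM (WT) of Ccl9. The Paneth-like cluster 7 again stood out within the epithelium, with 172 CPM (157 to 189, KO) and 286 CPM (268 to 305, WT), and held 21.8% (KO) and 21.3% (WT) of all Ccl9 UMIs. Epithelial-like cells of this kind were thus a source of both paralogs in both libraries.

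**Figure D3:**
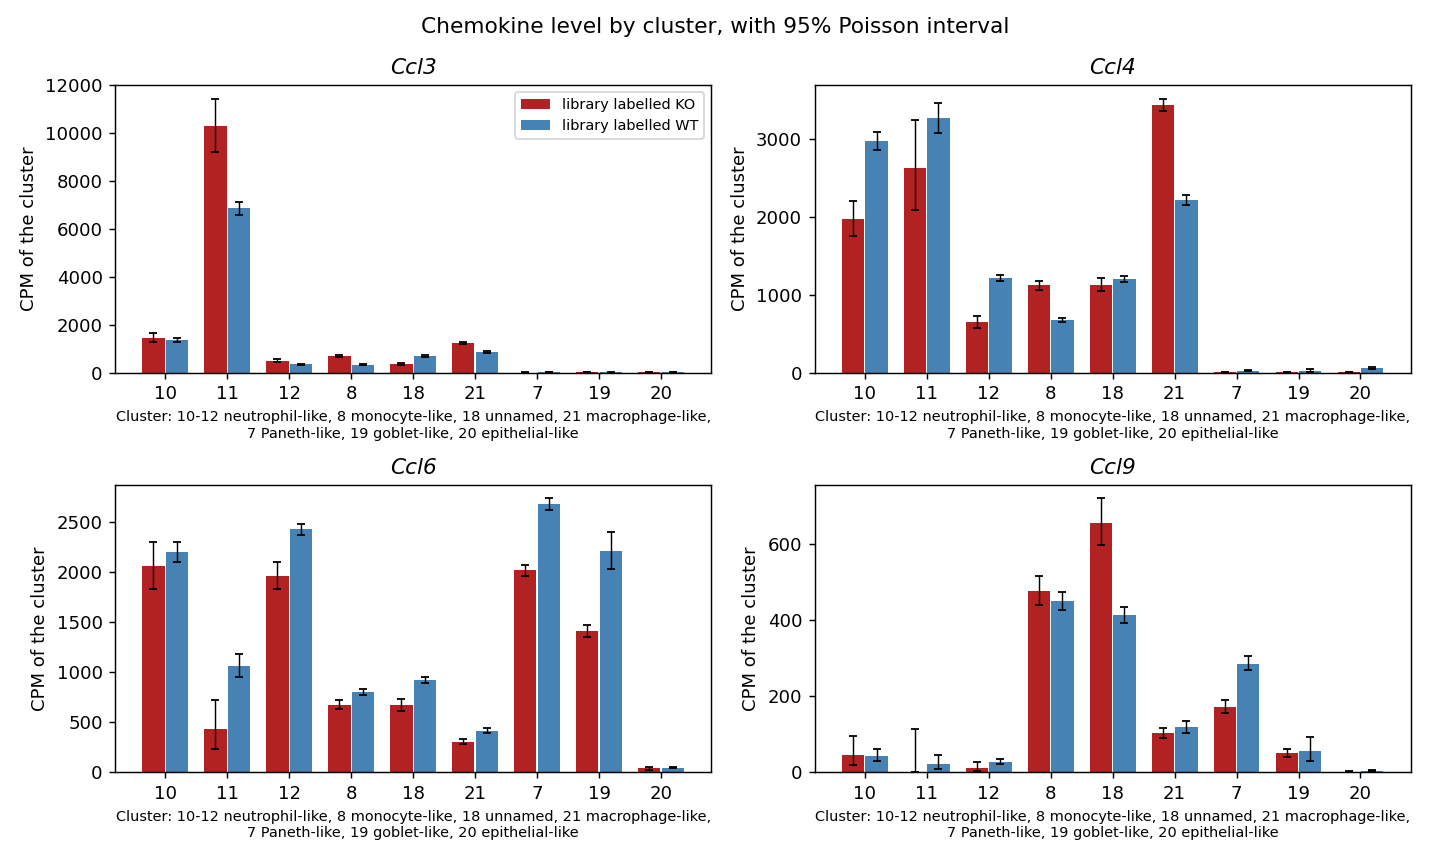
Level in CPM of the cluster for Ccl3, Ccl4, Ccl6 and Ccl9 in 9 clusters, with the library labelled KO on the left of each pair and the one labelled WT on the right; lines are 95% Poisson intervals. Ccl3 peaks in neutrophil-like cluster 11 (10290 for KO and 6867 CPM for WT), whereas Ccl6 in Paneth-like cluster 7 (2018 for KO and 2682 CPM for WT) is near its level in neutrophil-like clusters 10 and 12.

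The libraries were then compared class by class. A gene with at least 50 UMIs in a class over both libraries was measured, and it was called higher or lower where the ratio of CPM, KO over WT, was at least 1.5-fold from 1 with an interval that leaves out 1. The share of all measured genes called in the same class is given as the background.

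In neutrophil-like cells Ccl4 was called lower. Its level was 1083 CPM (1002 to 1169) in the library labelled KO and 1707 CPM (1669 to 1746) in the one labelled WT, a ratio of 0.635 (0.585 to 0.687). Within cluster 10 the ratio was 0.662 and within cluster 12 0.532. Ccl3 had a ratio of 1.21 (1.12 to 1.31), Ccl6 of 0.836 (0.786 to 0.889) and Ccl9 of 0.640 (0.323 to 1.15). Of 4 members measured 0 were called higher and 1 lower, against 9.26% and 17.8% of all genes in these cells. The median log2 ratio was -0.45 over the members and -0.16 over all genes. Dividing by the median ratio of all genes moved Ccl4 to 0.708 and thinning to 0.713, and either ends the call.

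Monocyte-like cells had more Ccl3 and Ccl4 and almost no Ccl5 in the library labelled KO. Ccl3 stood at 686 CPM (642 to 731) in the library labelled KO and 333 CPM (314 to 354) in the one labelled WT, a ratio of 2.06 (1.88 to 2.25). Ccl4 stood at 1121 CPM (KO) and 678 CPM (WT), a ratio of 1.65 (1.55 to 1.77). The higher sums came from few cells: 51.1% of the Ccl3 UMIs of the library labelled KO lay in 5 of its 196 cells, against 12.5% in the one labelled WT, and 14.9% (KO) and 16.9% (WT) of the thinned cells had a UMI. Without the 5 richest cells of each library the ratios were 1.17 for Ccl3 and 1.21 for Ccl4, and neither was called, nor was any member with no doublet removal or no mitochondrial filter. Ccl5 had 4 UMIs under the KO label and 291 under the WT label, a ratio of 0.0322 (0.00870 to 0.0832), and 48.8% of those 291 lay in 5 cells. That ratio depended on the grouping, with 1.57 where the cells were clustered at resolution 0.5 and 1.07 without the mitochondrial filter.

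The remaining monocyte-like values were closer to 1. Ccl2 had a ratio of 0.702 (0.621 to 0.792), Ccl6 of 0.842 (0.780 to 0.909), Ccl9 of 1.06 (0.966 to 1.17) and Ccl7 of 1.09 (0.703 to 1.66). Of 7 members measured 2 were called higher and 1 lower, against 12.8% and 22.5% of all genes. The median log2 ratio was 0.09 over the members and -0.12 over all genes.

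In cluster 18, Ccl2, Ccl12, Ccl5 and Ccl9 were higher in the library labelled KO and Ccl3 lower. Ccl9 had 656 (KO) and 413 CPM (WT), a ratio of 1.59 (1.43 to 1.77), and a UMI in 28.2% of thinned cells of the library labelled KO, against 15.7% of the one labelled WT. Ccl3 had 370 (KO) and 690 CPM (WT), a ratio of 0.537 (0.470 to 0.611), and a UMI in 19.7% (KO) and 34.3% (WT). Ccl2 had 178 (KO) and 64.9 CPM (WT) (2.74, 2.18 to 3.43), and Ccl12 40.8 (KO) and 16.6 CPM (WT) (2.46, 1.51 to 3.93). Ccl5 had 305 (KO) and 40.0 CPM (WT) (7.62, 6.12 to 9.50), with 99.5% of the UMIs of the library labelled KO in 5 cells.

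The library labelled KO has only 71 cells in this cluster, and removing the 5 richest of each library turned Ccl2 to 0.742, Ccl5 to 0.0982 and Ccl9 to 0.933 and left Ccl12 at 1.08. Ccl3 stayed below 1 in each of the 5 alternatives that could be followed, between 0.332 and 0.736, but past 1.5-fold in only 2 of them. Of 7 members measured 4 were called higher and 1 lower, against 8.01% and 11.2% of all genes. The median log2 ratio was 0.67 over the members and -0.06 over all genes. Ccl4 (0.937) and Ccl6 (0.726) were not called. The summed neutrophil markers in the cluster were 586 CPM in the library labelled KO and 1989 CPM in the one labelled WT, with 2 (KO) and 0 (WT) of 10 markers at 0. Their part in the Ccl3 difference was not tested.

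Macrophage-like cells were the only class besides the epithelium in which all 9 members were measured. The 4 genes of the monocyte chemoattractant group and both macrophage inflammatory protein genes had ratios above 1, and Ccl5, Ccl6 and Ccl9 ratios below 1. Ccl4 had a ratio of 1.55 (1.49 to 1.61), Ccl7 of 1.45 (1.29 to 1.62), Ccl3 of 1.44 (1.35 to 1.52), Ccl2 of 1.43 (1.30 to 1.58), Ccl12 of 1.32 (1.19 to 1.47) and Ccl8 of 1.27 (1.13 to 1.42). Ccl6 stood at 308 (KO) and 418 CPM (WT), a ratio of 0.737 (0.665 to 0.816), Ccl9 at 103 (KO) and 118 CPM (WT) (0.870, 0.722 to 1.05), and Ccl5 at 20.2 (KO) and 57.2 CPM (WT) (0.354, 0.243 to 0.506).

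Of these 9 members 1 was called higher and 1 lower, against 12.0% and 14.8% of all genes in macrophage-like cells, a share near the background. The median log2 ratio was 0.40 over the members and -0.03 over all genes. The 6 ratios above 1 stayed above 1 in each of the 11 alternatives that give them, from 1.09 for Ccl8 without its 5 richest cells to 3.30 for Ccl7 without cells that hold an Epcam UMI. The number called went up to 9 at Leiden resolution 0.5, but the share of all genes called under that setting was not computed. Ccl5 turned to 1.90 at resolution 2. Cells with an Epcam UMI, from the epithelial adhesion gene, made up 45.3% of the macrophage-like cells labelled KO and 24.2% of those labelled WT. The summed epithelial markers were 889 (KO) and 191 CPM (WT) and the neutrophil markers 601 (KO) and 1973 CPM (WT). Shares of thinned cells with a UMI were 21.1% (KO) and 12.3% (WT) for Ccl2, 24.0% (KO) and 13.2% (WT) for Ccl12, and 42.6% (KO) and 43.4% (WT) for Ccl3, after 30 (KO) and 13 (WT) shallower cells were left out. Before thinning they were 35.5% (KO) and 39.1% (WT), 45.3% (KO) and 37.1% (WT), and 62.0% (KO) and 77.0% (WT). The corresponding thinned shares of B-like cells were 0% (KO) and 0.397% (WT), 0% (KO) and 0% (WT), and 2.26% (KO) and 0.794% (WT).

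**Figure D4:**
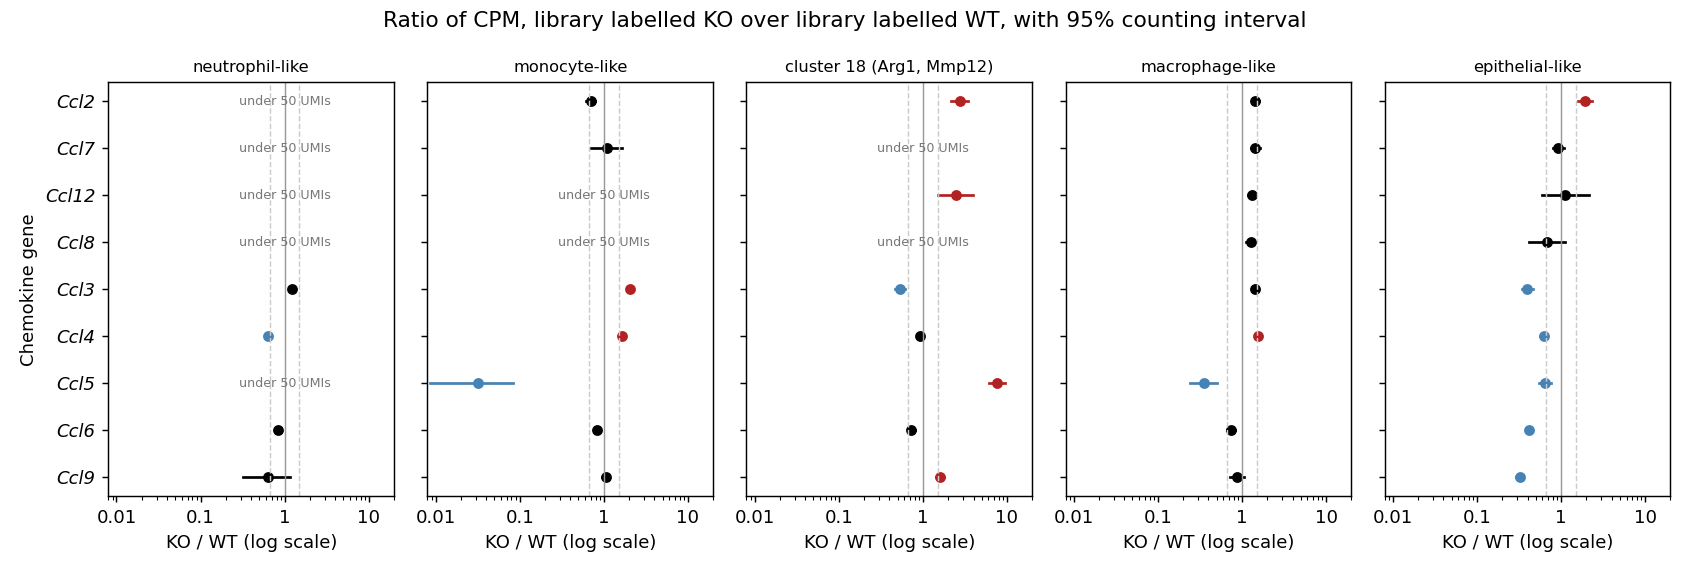
Ratio of CPM, library labelled KO over the one labelled WT, on a log axis with its 95% counting interval, for each chemokine gene in 5 groups of cells. Red marks genes called higher, blue genes called lower, black genes measured but not called, and dashed lines a 1.5-fold difference; in macrophage-like cells 6 ratios lie above 1 (1.27 to 1.55) and 3 below.

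Epithelial-like cells taken as a whole had less of most members in the library labelled KO, but the clusters within the class did not all go that way. Ccl6 stood at 141 CPM in the library labelled KO and 339 CPM in the one labelled WT, a ratio of 0.415 (0.403 to 0.428), and Ccl9 at 11.3 (KO) and 35.2 CPM (WT), a ratio of 0.322 (0.291 to 0.355). The Paneth-like cluster 7, rich in both, made up 118 of 2557 epithelial-like cells in the library labelled KO and 218 of 2232 in the one labelled WT. Within that cluster the ratios were 0.752 (0.727 to 0.779) for Ccl6 and 0.603 (0.537 to 0.676) for Ccl9. Goblet-like cluster 19, with 154 cells labelled KO and only 31 labelled WT, had ratios of 0.639 (0.582 to 0.702) for Ccl6 and 0.907 (0.513 to 1.73) for Ccl9. With equal weight per cluster the Ccl9 ratio of the whole class was 0.813.

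The other epithelial levels were low. Ccl3 stood at 4.66 (KO) and 11.7 CPM (WT) (ratio 0.399), Ccl4 at 13.8 (KO) and 22.3 CPM (WT) (0.619), Ccl5 at 6.82 (KO) and 10.6 CPM (WT) (0.645), and Ccl2 at 9.83 (KO) and 5.13 CPM (WT) (1.91). Summed neutrophil markers in the same cells were 138 (KO) and 898 CPM (WT), with all 10 lower in the library labelled KO, and their part in the Ccl3 and Ccl4 values was not tested. Among clusters where each was measured, ratios ran from 0.1425 (cluster 4) to 2.08 (cluster 5) for Ccl3 and from 0.107 (cluster 20) to 2.40 (cluster 5) for Ccl4. Those of Ccl5 were 0.526 in cluster 4, 2.02 in cluster 1, 2.85 in cluster 20 and 10.9 in cluster 5. Ccl6 was above 1 in cluster 5 (1.79), led by Lars2 and Rn18s-rs5, and below 1 in every other measured cluster. The Ccl4 ratio turned to 1.35 when cells were thinned and the Ccl5 ratio to 2.97 when each cell was weighted equally, and that of Ccl2 was 1.04 with equal weight per cluster. Of 9 members measured 1 was called higher and 5 lower, against 9.71% and 15.7% of all genes. The median log2 ratio was -0.63 over the members and -0.02 over all genes.

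In T-like cells Ccl3 and Ccl4 were called higher and Ccl5 lower, 2 and 1 of 3 measured, against 9.79% and 19.1% of all genes. Ccl5 stood at 192 (KO) and 387 CPM (WT), a ratio of 0.497 (0.415 to 0.591). Ccl4 stood at 235 (KO) and 67.3 CPM (WT) (3.49), but 94.6% of the UMIs of the library labelled KO lay in 5 cells and the ratio without them was 0.456. Ccl3 stood at 48.1 (KO) and 30.2 CPM (WT) (1.59, 1.04 to 2.41), from 38 (KO) and 66 UMIs (WT), and turned to 0.580 with no doublet removal.

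Mast-like cells had ratios near 1 for Ccl2 (0.962, 0.842 to 1.10) and Ccl4 (0.873, 0.749 to 1.02), of 1.21 for Ccl3 and of 1.46 for Ccl7. The Ccl2 ratio was 0.563 without the 5 richest cells and 2.07 without cells that hold an Epcam UMI. Of 5 measured 1 was called higher, Ccl6 with 98.9% of the UMIs of the library labelled KO in 5 cells and a ratio of 0.114 without them, and 0 lower, against 26.4% and 18.5% of all genes. In plasma-like cells 0 of 2 were higher and 2 lower, against 13.4% and 20.4%, namely Ccl4 at 7.84 (KO) and 56.7 CPM (WT) and Ccl6 at 10.4 (KO) and 60.2 CPM (WT), and without the 5 richest cells, at ratios of 0.371 for Ccl4 and 0.402 for Ccl6, neither had the UMIs to be measured. The summed neutrophil markers in plasma-like cells were 55.4 CPM (KO) and 2908 CPM (WT), with 4 of 4 measured called lower, and their part in the Ccl4 and Ccl6 values was not tested. In cluster 17 only Ccl5 was measured, at 120 (KO) and 115 CPM (WT), and 0 of 1 was called in either direction, against 9.22% and 14.9%. B-like cells had 0 members measured, where 9.46% and 15.6% of all genes were called.

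**Figure D5:**
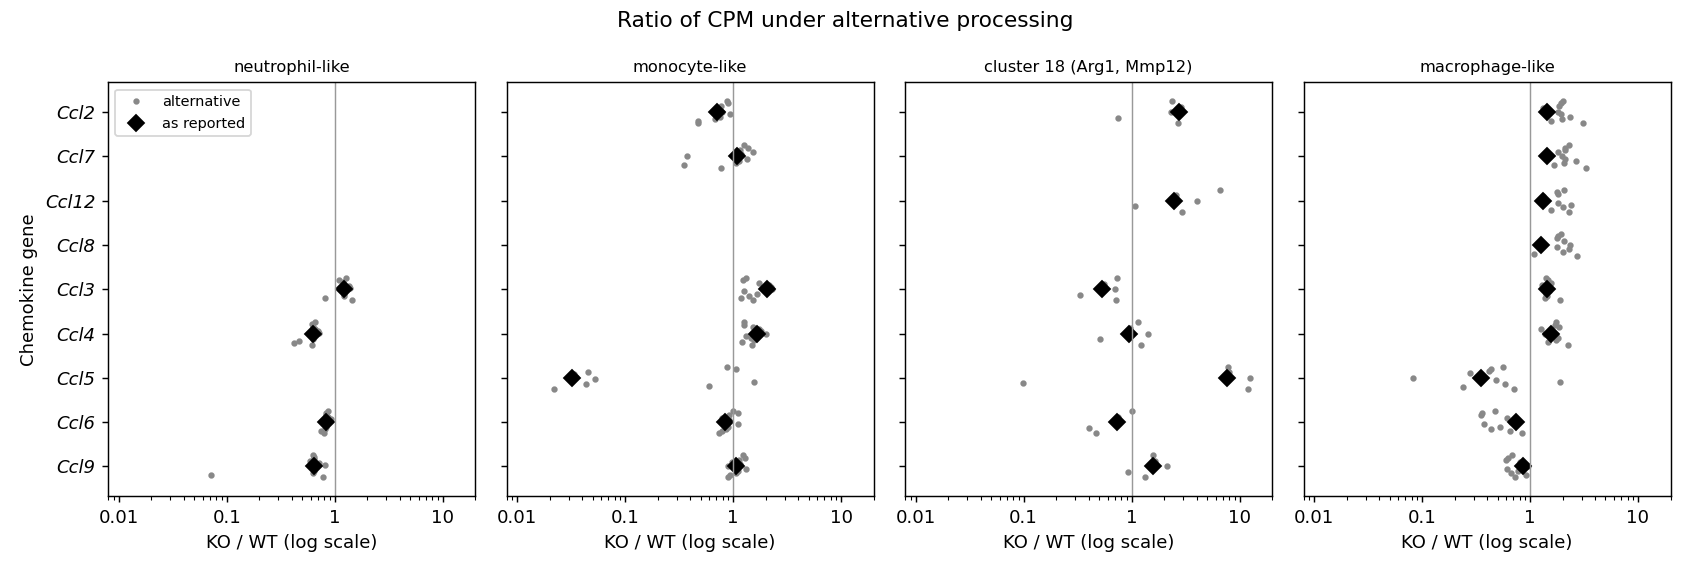
Ratio of CPM, library labelled KO over the one labelled WT, on a log axis, as reported (diamonds) and under each alternative way of processing (grey points), for the measured chemokine genes in 4 groups of cells. The ratios of Ccl2, Ccl7, Ccl12, Ccl8, Ccl3 and Ccl4 in macrophage-like cells stay above 1 throughout, while Ccl5 crosses 1 in 3 of the groups.

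The number of members found in a cell depends on its depth, and at 1000 UMIs a cell with no UMI of a gene may still express it. Of the cells thinned to that depth, macrophage-like cells had a median of 2 members with a UMI in both libraries, and 37.8% of those of the library labelled KO and 28.9% of the one labelled WT had 3 or more. Neutrophil-like and monocyte-like cells had a median of 1. Ccl3 and Ccl4 went together in macrophage-like cells: 89.7% (KO) and 74.5% (WT) of the cells with Ccl3 had Ccl4, against 41.9% (KO) and 47.4% (WT) of those without (Spearman rho over 204 for KO and 235 for WT cells, 0.65 for KO and 0.36 for WT). Ccl2 and Ccl7 were paired in a like manner, with Ccl7 in 44.2% (KO) and 41.4% (WT) of cells with Ccl2 and in 9.32% (KO) and 5.34% (WT) of those without (rho 0.41 for KO and 0.40 for WT). In neutrophil-like cells Ccl6 was found in 51.6% (KO) and 67.4% (WT) of cells with Ccl3 and in 64.9% (KO) and 75.4% (WT) of cells without. Cells of a library share their source, so these are descriptions of 2 libraries.

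Across 22 clusters with at least 30 cells in both libraries, the genes most like each member were ranked by the lower of the 2 libraries' Pearson r of log2(CPM + 1), among 10530 genes. Ccl12 was most like C1qc (r 0.90 for KO and 0.92 for WT), Apoe and Ms4a7, and Ccl8 most like Olfml3 (0.73 for KO and 0.74 for WT), C1qa and C1qc. Ccl2 was most like C3ar1 (0.84 for KO and 0.82 for WT), Hebp1 and Emilin1, and Ccl7 most like Ptgs1 (0.72 for KO and 0.74 for WT), Hebp1 and C3ar1. For Ccl3 the nearest were Fcer1g (0.91 for KO and 0.93 for WT), Rab20 and Tyrobp, and for Ccl4 Ncf1 (0.87 for KO and 0.90 for WT), Fcer1g and Il10ra. Ccl5 was nearest to Nkg7 (0.82 for KO and 0.88 for WT), Ms4a4b and Prkch, Ccl6 to Arg2 (0.78 for KO and 0.77 for WT), Msrb1 and Clec4d, and Ccl9 to Csf1r (0.82 for KO and 0.85 for WT), Aldh3b1 and Sirpa. Between members, r was highest for Ccl3 with Ccl4 (0.88 for KO and 0.96 for WT), followed by Ccl6 with Ccl9 (0.74 for KO and 0.85 for WT) and Ccl2 with Ccl7 (0.75 for KO and 0.74 for WT). Points share a library and its depth, so r is a description.

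Ccr2, the main receptor of Ccl2, Ccl7 and Ccl12, stood at 304 (KO) and 290 CPM (WT) in monocyte-like cells and 361 (KO) and 267 CPM (WT) in T-like cells, against 30.8 (KO) and 47.5 CPM (WT) in macrophage-like cells, where most Ccl12 UMIs lay. Ccr2 is among the monocyte markers used to name the monocyte-like class, so its level there is in part built into the name. Ccr1 was highest in neutrophil-like cells, at 607 (KO) and 695 CPM (WT). Ccrl2, an atypical receptor that binds chemerin, was called lower in neutrophil-like cells, at 858 (KO) and 1662 CPM (WT) (0.516, 0.472 to 0.564). Ccr2 was called higher in cluster 18, at 233 (KO) and 149 CPM (WT) (1.56, 1.30 to 1.87), and lower in macrophage-like cells (0.649, 0.467 to 0.895).

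Among genes that induce or restrain these chemokines, as among all genes, more were called lower than higher in each myeloid class. Of 18 listed, 0 of 16 measured were higher and 11 lower in monocyte-like cells, against 12.8% and 22.5% of all genes there. In cluster 18, 0 of 15 were higher and 8 lower, against 8.01% and 11.2%. In macrophage-like cells 0 of 15 were higher and 6 lower, against 12.0% and 14.8%, and in neutrophil-like cells 2 of 14 were higher and 4 lower, against 9.26% and 17.8%. In the order of these classes the median log2 ratios were -1.22, -0.70, -0.45 and -0.39, each below the median of all genes given above. Tnf, a cytokine that induces many chemokines, stood at 166 (KO) and 671 CPM (WT) in monocyte-like cells, 90.4 (KO) and 833 CPM (WT) in cluster 18, and 152 (KO) and 332 CPM (WT) in macrophage-like cells, but at 271 (KO) and 175 CPM (WT) in neutrophil-like cells. Tnfaip3, a feedback inhibitor of NF-kappaB, was lower in all 4 (236 for KO and 858 CPM for WT in monocyte-like cells), whereas Il1b was called in none of them (10630 for KO and 7938 CPM for WT in monocyte-like cells). The early response gene Egr1 stood at 88.3 (KO) and 444 CPM (WT) in monocyte-like cells and 686 (KO) and 707 CPM (WT) in neutrophil-like cells. In monocyte-like and macrophage-like cells the ratios of Ccl3 and Ccl4 thus lay above 1 and those of Tnf and Tnfaip3 below 1.

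Other chemokines of the same classes varied. Ccl24, an eosinophil attractant of alternatively activated macrophages, stood at 4.82 (KO) and 104 CPM (WT) in macrophage-like cells (ratio 0.0464, 0.0220 to 0.0869) and 681 (KO) and 1819 CPM (WT) in cluster 18 (0.375), but at 763 (KO) and 500 CPM (WT) in monocyte-like cells (1.53). The shares of all genes called higher and lower were again 12.8% and 22.5% in monocyte-like cells, 9.26% and 17.8% for neutrophil-like cells, 12.0% and 14.8% for macrophage-like cells, and 8.01% and 11.2% for cluster 18. Beside these, of 11 other CC chemokines, 1 of 2 measured was higher and 1 lower in monocyte-like cells, 0 of 3 higher and 2 lower in cluster 18, 0 of 1 higher and 1 lower in macrophage-like cells, and 0 were measured in neutrophil-like cells. Of 7 CXC and other chemokines, 1 of 5 measured was higher and 2 lower in neutrophil-like cells, 1 of 6 higher and 3 lower in monocyte-like cells, 0 of 5 higher and 2 lower in cluster 18, and 0 of 6 higher and 3 lower in macrophage-like cells, with median log2 ratios of -0.34, -0.66, -0.36 and -0.52. Cxcl9 and Cxcl10, attractants of T cells induced by interferon, were lower in monocyte-like cells (26.0 for KO and 89.1 CPM for WT, and 151 for KO and 330 CPM for WT) and in macrophage-like cells (17.3 for KO and 107 CPM for WT, and 277 for KO and 558 CPM for WT).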

How the data were processed

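The deposited values are raw UMI counts, 1 per gene and cell barcode, which Cell Ranger 7.2.0 wrote per the file headers. The build was GRCm39 per the submitters' processing notes. The labels' protocol describes RNA from lysed tissue and a random-primed library, so the capture chemistry is not known. Alignment settings are not stated there.

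The matrices hold 4896 barcodes and 75024663 UMIs (labelled KO) and 9512 barcodes and 59189995 UMIs (labelled WT). Kept barcodes had 200 genes or more and less than 20% of UMIs from mitochondria. Scrublet's automatic threshold marked 0.0456% and 0%, which is no working call, so the top-scoring 0.8% per 1000 barcodes were removed (154 and 633). Both libraries were clustered together with scanpy 1.11.5 (2000 variable genes, 30 components, 15 neighbours, Leiden resolution 1, seed 0), with all Ccl and Cxcl genes left out of the variable genes. Of 24 clusters, 3 stayed unnamed because the marker lists or leading genes did not settle a name. A class or unnamed cluster was compared where each library held 50 or more of its cells, and a cluster within a class where each held 30 or more.

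UMIs were summed per class and divided by the class total (CPM). Intervals at 95% are exact: Poisson for levels, conditional binomial for ratios, Clopper-Pearson for shares. A count of 0 was given a floor of 3 counts. The ratio and call step was tested on simulated counts drawn independently for each gene and class. These lack the concentration of UMIs in few cells seen here, so the test cannot show how the intervals fare under it. Genes named are the 9 members, listed genes with at least 50 UMIs in the class and the 3 genes most like each member. The members and lists were chosen with earlier results of these data known. Promoter sequences are from RefSeq, build GRCm38.p6. Member proteins were not used here, and counts over the list of receptors are not reported here. Other tools were Python 3.11.15, numpy 2.4.6, scipy 1.17.1, pandas 2.3.3, igraph 0.11.9 and matplotlib 3.10.9.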

Additional observations from a re-analysis of the deposited data

Results flagged for a closer look

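Members called in opposite directions in different classes, KO over WT, are listed here with their most distant ratios, and the difference between the classes was not tested. Ccl3 had a ratio of 2.06 in monocyte-like cells (1.17 without the 5 richest cells of each library) and 0.399 in epithelial-like cells. Ccl4 had a ratio of 3.49 in T-like cells, almost all of it from 5 cells and 0.456 without the 5 richest of each library, and 0.138 in plasma-like cells. Ccl5 had a ratio of 7.62 in cluster 18, likewise from 5 cells and 0.0982 without the richest, and 0.0322 in monocyte-like cells. Ccl6 had a ratio of 3.27 in mast-like cells, again from 5 cells and 0.114 without the richest, and 0.174 in plasma-like cells. Ccl9 had a ratio of 1.59 in cluster 18 (0.933 without the 5 richest cells) and 0.322 in epithelial-like cells.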

How the results depend on the processing

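Of 480 member ratios recomputed under 15 alternatives (2 chosen after seeing the data: immune classes without cells that hold an Epcam UMI, and the epithelium without the cluster led by Lars2 and Rn18s-rs5), 428 stayed on the same side of 1, but only 250 stayed within the counting interval of the reported ratio, 216 moved outside it and 14 called ratios changed sides. The number of members called in macrophage-like cells was 2 as reported, 7 with no doublet removal, 8 with no mitochondrial filter, 9 under 10% mitochondrial UMIs, 4 with each cell weighted equally, 4 thinned, 9 and 7 at Leiden resolution 0.5 and 2, 7 with a class per cell, 5 without the 5 richest cells, 1 at 2-fold and 6 without Epcam cells. Their median log2 ratio was 0.40, and 0.79, 0.76, 0.84, 0.81, 0.93, 0.81 and 1.18 with no doublet removal, no mitochondrial filter, under 10%, resolution 0.5, resolution 2, a class per cell and no Epcam cells. In neutrophil-like cells 1 was called as reported, 2 with no doublet removal, each cell weighted equally, equal weight per cluster, without the 5 richest cells or at 10 UMIs, and 0 scaled by the median ratio, thinned or at 2-fold. The median of -0.45 became -0.60, -0.83 and 0.05 with no doublet removal, without the 5 richest cells and at 10 UMIs. In monocyte-like cells 3 were called, but 0 with no doublet removal or no mitochondrial filter and 1 at resolution 0.5. The median of 0.09 became 0.31, 0.32, 0.39 and, without Epcam cells, -0.38. In cluster 18, 5 were called, 1 thinned and 3 at 2-fold, and the median of 0.67 became 0.06 thinned, -1.14 without the 5 richest cells, 0.98 at 10 UMIs and 0.42 without Epcam cells. In mast-like cells 1 was called, 2 with no doublet removal, 3 with each cell weighted equally, a class per cell, without the 5 richest cells or at 10 UMIs, and 5 without Epcam cells. In plasma-like cells 2 were called, 0 thinned or without the 5 richest cells and 4 with a class per cell or at 10 UMIs. In cluster 17, 0 became 1 without the 5 richest cells, in B-like cells 0 became 2 at 10 UMIs, and in epithelial-like cells 6 became 3 thinned or at 2-fold. In all of these the cause was not tested, apart from the settings that change the UMI minimum or the fold themselves. The share of all genes called was computed for the reported setting only. The counts under the alternatives thus have no background beside them.

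Called ratios that changed sides were Ccl5 in monocyte-like cells (1.07 with no mitochondrial filter, 1.57 at resolution 0.5) and in macrophage-like cells (1.90 at resolution 2), Ccl2, Ccl5 and Ccl9 in cluster 18 without the 5 richest cells (0.742, 0.0982 and 0.933), and Ccl6 in mast-like cells (0.113 with a class per cell, 0.114 without the 5 richest). The same held in T-like cells for Ccl3 (0.580 with no doublet removal, 0.871 with a class per cell) and Ccl4 (0.456 without the 5 richest), and in epithelial-like cells for Ccl4 (1.20 with each cell weighted equally, 1.35 thinned) and Ccl5 (2.97 with each cell weighted equally). These 5 cells are a larger part of the smaller library labelled KO. Cluster 18 could not be followed where cells were regrouped. No paired analysis was possible because each genotype has 1 library. Depth limits low genes in small classes: in neutrophil-like cells the interval of a count of 0 reaches 6.065 CPM in the library labelled KO, against 0.818 CPM in the one labelled WT.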
